A study of Mus musculus with 3 samples.

Results

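The genes described here are 9 genes of the oligodendrocyte lineage, taken by name as Olig1, Olig2, Nkx2-2, Pdgfra, Cspg4, Opcml, Gpr17, Gjc3 and Bcas1. All 9 had a row among the 16977 genes of the deposited table and 0 were absent. They were read as 6 genes of the precursor stage (Olig1 to Opcml) and 3 of the maturing stage (Gpr17, Gjc3 and Bcas1). RNA was sequenced from cultured neural stem cells of C57BL/6J mouse embryos at stage E12.5, grown with EGF at 20 ng/ml and FGF at 10 ng/ml. The shPHF2 group (2 libraries, called biological replicates) had received a lentivirus with a short hairpin RNA against PHF2, a histone H3 lysine 9 demethylase. The shControl group (1 library) had received the same kind of virus with a control hairpin. The sources used here do not give the hairpin sequences, the number of embryos pooled or the time after infection.

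Oligodendrocytes form the myelin sheaths of the central nervous system. They arise from precursor cells that are specified by the basic helix-loop-helix factor OLIG2 in ventral neural progenitors under hedgehog signalling, divide in response to PDGF through the receptor PDGFRA, and later switch on genes of the myelin programme under SOX10 and MYRF. Neural stem cells expanded with FGF are known to express OLIG2 without being committed to this lineage.

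All values are normalised reads, a gene's reads divided by its library's size factor. The libraries held 37171026, 26302177 and 32898139 reads in genes for shPHF2 replicate 1, shPHF2 replicate 2 and shControl. Phf2 itself had 985 and 714 normalised reads in shPHF2 replicates 1 and 2, against 2593 in shControl, which left 38% and 27.5% of the control level. The shControl values come from 1 library, so their own error could not be estimated, and tests rest on the spread of the shPHF2 pair moderated over all genes (limma). In a bulk culture fewer cells of a type and less RNA per cell cannot be told apart.

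Of the 9 genes, 8 had a mean of at least 10 normalised reads and were tested. Gjc3 fell, and it was the sole gene of the 8 past the threshold (limma, adjusted p under 0.05), so 1 was lower and 0 higher (1 higher with edgeR and 1 with DESeq2). Over all 14148 genes tested, 14.3% passed, 7.22% of them higher and 7.11% lower as shares of the genes tested, so 1 of 8 is close to the background. With edgeR 15.2% of all genes passed and with DESeq2 14%. At an unadjusted p under 0.05, 2 were higher (Nkx2-2 and Opcml) and 2 lower (Pdgfra and Gjc3), where 31.2% of all genes passed in either direction, 15.8% higher and 15.4% lower. The log2 fold changes of Olig1, Olig2, Cspg4 and Bcas1 lay between -0.32 and 0.26, and those of Gjc3, Pdgfra, Opcml and Nkx2-2 were -2.55, -1.29, 1.40 and 2.32. In every one of the 8, both shPHF2 libraries lay on the same side of the control, 3 above and 5 below, as did 83.2% of all genes tested (41.4% above and 41.8% below).

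**Figure D1:**
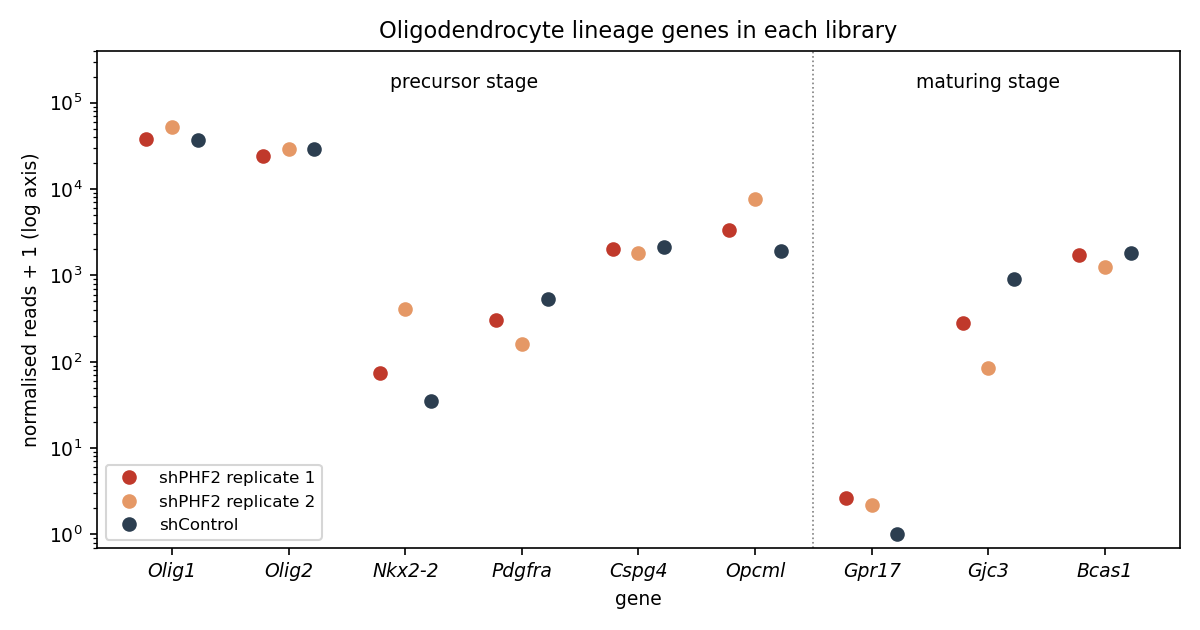
Normalised reads plus 1 (log axis) of the 9 genes in each library, with the precursor stage left of the dotted line and the maturing stage right of it. Each point is 1 library. Olig1 and Olig2 stand far above the others in all 3 libraries, Gpr17 is near 0, and the shPHF2 points of Gjc3 and Pdgfra lie below the control while those of Nkx2-2 and Opcml lie above it.

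The transcription factor pair of the lineage was abundant in every library. Olig1, which encodes a helix-loop-helix factor of precursor and myelinating cells and lies on chromosome 16 from 91269772 to 91271933 (GRCm38, GENCODE M21, plus strand), had 38217 and 52987 normalised reads in shPHF2 replicates 1 and 2, against 37506 in shControl. Replicate 1 was close to the control and replicate 2 above it, and its fitted change was 0.26 on the log2 scale (SE 0.29; limma, adjusted p = 0.58). Olig2, its neighbour 41094 bases away on the same strand (91225457 to 91228677), had 24241 and 29091 normalised reads in the shPHF2 libraries and 29320 in shControl. Its replicate 2 lay almost at the control level and replicate 1 below it, for a fitted log2 change of -0.14 (SE 0.24; limma, adjusted p = 0.73). Per kilobase of annotated exon, Olig1 exceeded Olig2 by 1.84 and 2.13 times in the shPHF2 libraries and by 1.5 times in shControl. With each library adjusted for the genes' GC content and length, an alternative added once the data had been seen, the change of Olig1 was 0.03 and that of Olig2 -0.38, neither called (limma, adjusted p = 0.95 and 0.29).

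Nkx2-2, a homeodomain factor of the most ventral progenitors that promotes the exit from the precursor stage, was low in the control and above it in both shPHF2 libraries. It lies on chromosome 2 (147177546 to 147194243, minus strand) and had 72.5 and 412 normalised reads in shPHF2 replicates 1 and 2, against 33.9 in shControl. The control value rests on 34 reads, with an exact Poisson 95% interval of 23.5 to 47.4 normalised reads for counting error only. Both shPHF2 values lay above that interval, but replicate 2 was 5.68 times replicate 1. The log2 fold change was 2.32 (SE 0.87) and did not pass (limma, adjusted p = 0.11). It was 1.08 in replicate 1 alone and 3.57 in replicate 2 alone. The authors' deposited table gave Nkx2-2 an adjusted p of 0.0062, and DESeq2 on the recovered reads gave 0.0073, so the call depends on the tool. A pair of antisense transcripts, Nkx2-2os and 6430503K07Rik, overlap the gene on the other strand, and the sources used here do not say whether reads were counted by strand.

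The RNA of both surface proteins by which precursors are usually recognised lay below the control in the shPHF2 libraries, and neither gene passed. Cspg4 was close to the control. Pdgfra, the receptor for PDGF-AA (chromosome 5, 75152292 to 75198215, plus strand), had 303 and 159 normalised reads in shPHF2 replicates 1 and 2, against 539 in shControl. Both shPHF2 libraries were below the control, at 56.1% and 29.5% of it, and the log2 fold change was -1.29 (SE 0.41; limma, adjusted p = 0.071). Cspg4, the NG2 proteoglycan gene (chromosome 9, 56865033 to 56899870, plus strand), had 2008 and 1830 normalised reads in the shPHF2 libraries and 2114 in shControl. It stood at 95% and 86.6% of the control, and the log2 fold change was -0.14 (SE 0.18; limma, adjusted p = 0.65). Per kilobase, Cspg4 stood at 5.58 and 9.66 times Pdgfra in the shPHF2 libraries and at 3.29 times in shControl.

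Opcml, named for opioid binding and not for precursor cells, encodes a GPI-anchored adhesion protein of the IgLON family and is also expressed by neurons. The gene spans chromosome 9 from 27790775 to 28925410 (plus strand). It had 3341 and 7593 normalised reads in shPHF2 replicates 1 and 2, against 1902 in shControl. Both shPHF2 libraries were above the control and replicate 2 was 2.27 times replicate 1. The log2 fold change was 1.40 (SE 0.40), just short of the threshold (limma, adjusted p = 0.055), and it passed with edgeR (adjusted p = 0.040). The authors' deposited table gave Opcml an adjusted p of 0.32, and 16% of its genes with a value passed.

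Gpr17, a receptor of committed precursors on chromosome 18, had 2 reads in shPHF2 replicate 1, 1 in replicate 2 and 0 in shControl, where a count of 0 allows up to 2.99 normalised reads. It was not tested, and no difference was detectable at this depth. It also overlaps Lims2 on the other strand. Bcas1, a protein of early myelinating cells (chromosome 2, 170346991 to 170427845, minus strand), had 1713 and 1251 normalised reads in the shPHF2 libraries and 1824 in shControl. Replicate 1 was close to the control and replicate 2 lower, for a fitted log2 change of -0.32 (SE 0.23; limma, adjusted p = 0.39).

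Gjc3 encodes connexin 29, a gap junction family protein of myelinating cells, and is found on chromosome 5 (137953461 to 137963098, minus strand). It had 283 and 84.4 normalised reads in shPHF2 replicates 1 and 2, against 911 in shControl. The shPHF2 mean of 184 ± 141 (SD, n = 2) was 20.2% of the control. The level left was 31.1% in replicate 1 and 9.26% in replicate 2. On the log2 scale Gjc3 changed by -2.55 (SE 0.61; limma, adjusted p = 0.032). Gjc3 no longer passed after the adjustment for GC content and length (limma, adjusted p = 0.076) or with DESeq2 run on all genes without a filter, also added later (adjusted p = 0.26), where its change was -2.54 and -2.31. The call was also lost with no filter, without the mean-variance trend and with quantile normalization (limma, adjusted p = 0.21, 0.22 and 0.15), and the authors' deposited table gave 0.26. With DESeq2 on genes whose mean was 10 or more the adjusted p was 8.4e-04, so the filter moved this value across the threshold. Among 3221 other genes with a mean within 2-fold of that of Gjc3, the pattern most like it, by the Euclidean distance of the replicates' log2 differences over the 3 libraries, was that of the laminin gene Lama1 at a distance of 0.37. Prkcq, a protein kinase C gene, was next at 0.81.

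**Figure D2:**
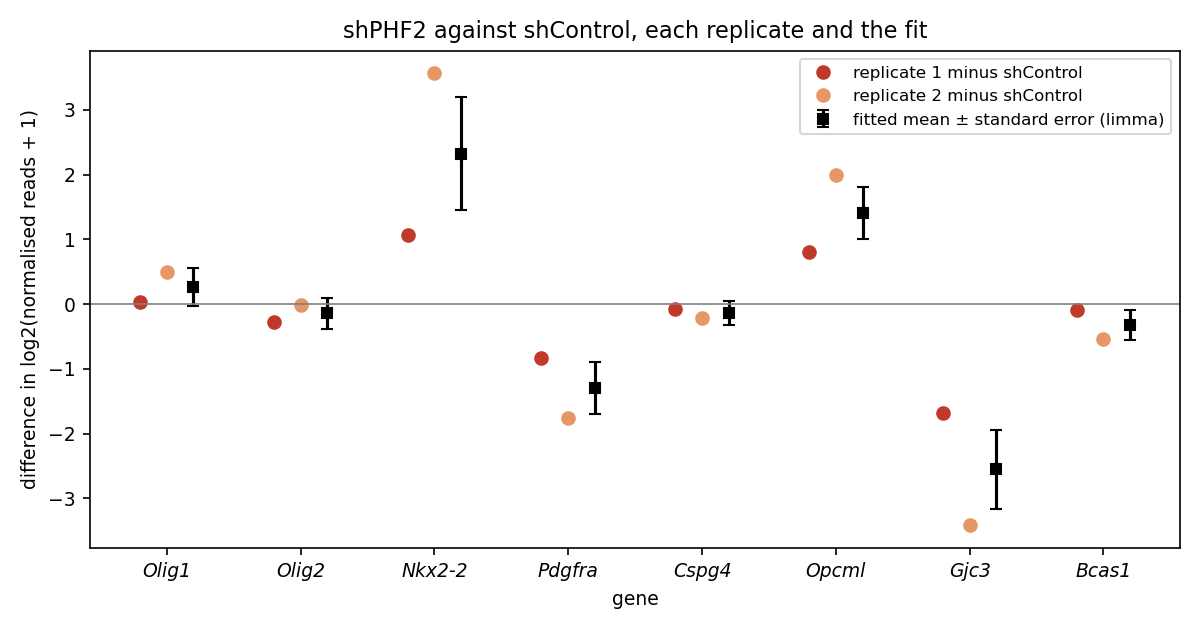
Difference from shControl in log2(normalised reads + 1) for the 8 genes tested, for shPHF2 replicate 1, replicate 2 and the fitted mean with its standard error. Gjc3 is lowest at -2.55 and Nkx2-2 highest at 2.32, and in both the replicates lie far apart.

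The promoters of the 4 genes with the largest changes are shown to compare their sequence, as RefSeq windows on GRCm38.p6 of 250 bases before and 50 bases after a transcription start, written on the strand of the gene. Capitals mark the E-box CANNTG, the motif of helix-loop-helix factors such as OLIG2, searched on both strands. RefSeq windows were found for 6 of the 9 genes. Those of Nkx2-2 and Opcml lie inside the GENCODE spans of these genes, at starts other than the outermost ones at 147194243 and 27790775. The coordinates are chr5:137963049-137963348 for Gjc3 (minus strand), chr5:75152001-75152300 for Pdgfra (plus strand), chr2:147186353-147186652 for Nkx2-2 (minus strand) and chr9:27791049-27791348 for Opcml (plus strand).
Gjc3: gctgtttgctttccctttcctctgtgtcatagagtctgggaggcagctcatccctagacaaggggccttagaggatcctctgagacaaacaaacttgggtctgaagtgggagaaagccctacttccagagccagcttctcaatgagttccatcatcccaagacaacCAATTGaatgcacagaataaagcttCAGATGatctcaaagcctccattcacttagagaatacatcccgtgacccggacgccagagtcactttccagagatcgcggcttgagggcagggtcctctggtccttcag
Pdgfra: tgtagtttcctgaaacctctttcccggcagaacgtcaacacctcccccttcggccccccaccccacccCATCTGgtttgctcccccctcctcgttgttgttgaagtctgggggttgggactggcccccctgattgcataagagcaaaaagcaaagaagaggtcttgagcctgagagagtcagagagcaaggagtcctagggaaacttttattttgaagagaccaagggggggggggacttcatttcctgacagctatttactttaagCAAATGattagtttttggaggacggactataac
Nkx2-2: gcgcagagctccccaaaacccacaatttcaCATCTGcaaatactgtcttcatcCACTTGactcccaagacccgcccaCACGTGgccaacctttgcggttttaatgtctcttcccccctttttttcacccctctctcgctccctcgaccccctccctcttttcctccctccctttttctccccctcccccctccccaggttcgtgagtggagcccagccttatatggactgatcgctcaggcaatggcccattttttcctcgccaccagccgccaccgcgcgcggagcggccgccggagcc
Opcml: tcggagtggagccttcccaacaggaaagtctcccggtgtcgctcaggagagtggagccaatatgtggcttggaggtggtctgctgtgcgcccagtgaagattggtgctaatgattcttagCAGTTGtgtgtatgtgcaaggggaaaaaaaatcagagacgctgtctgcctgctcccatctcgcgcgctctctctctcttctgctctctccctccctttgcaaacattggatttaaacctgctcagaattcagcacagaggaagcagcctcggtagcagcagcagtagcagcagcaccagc

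The E-box occurred 2 times in the Gjc3 window, 2 times in that of Pdgfra, 3 times in that of Nkx2-2 and 1 time in that of Opcml, and 72.3% of 32851 RefSeq windows of this length held at least 1. The Olig2 and Cspg4 windows held 0. The shorter motif ACAAT, bound by SOX factors, occurred 1 time in the Nkx2-2 window and 0 times in the other 3 windows printed, and 31.0% of all windows held it. The Nkx2-2 window had 17 CpG dinucleotides, Opcml 9, and Gjc3 and Pdgfra 5 each, against a median of 7. These matches describe 4 windows and were not tested.

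The order of levels was read per kilobase of annotated exon. In shControl it ran Olig1 at 17348 normalised reads per kilobase, Olig2 at 11589, Bcas1 at 483, Gjc3 at 209, Cspg4 at 177, Opcml at 131, Pdgfra at 53.8, Nkx2-2 at 11.8 and Gpr17 at 0. In the shPHF2 mean the first 3 places were the same, at 21092, 10540.0 and 393, and Opcml followed at 377, Cspg4 at 161, Nkx2-2 at 84.3, Gjc3 at 42.2, Pdgfra at 23.0 and Gpr17 at 0.28. Opcml and Bcas1 overlapped between replicates in the shPHF2 libraries, and Nkx2-2, Gjc3 and Pdgfra overlapped with each other. Among all genes tested, Olig1 and Olig2 stood above percentile 99 per kilobase in each library. Gjc3 stood at percentiles 26.4 and 14.3 in the shPHF2 replicates and 50.4 in shControl, and Opcml at 53.2 and 76.0 against 39.8.

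The replicates themselves differed more over these genes than over most. The gap between the shPHF2 libraries had a median of 0.70 on the log2 scale over the 8 genes and of 0.21 over all genes tested. For Nkx2-2 it was 2.49, and 0.549% of the 2002 tested genes with a mean within 2-fold of its own had a gap at least as large. For Gjc3 the gap was 1.74 (0.776% of genes of similar mean) and for Opcml 1.18 (0.248%), while for Cspg4 it was 0.13 (56.4%). The change from the control was larger in replicate 2 than in replicate 1 in 7 of the 8 genes (87.5%), Olig2 being the exception. Over all genes tested this share was 57.8%. Replicate 2 also had the lower remaining level of Phf2, given above, and its part in these values was not tested.

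**Figure D3:**
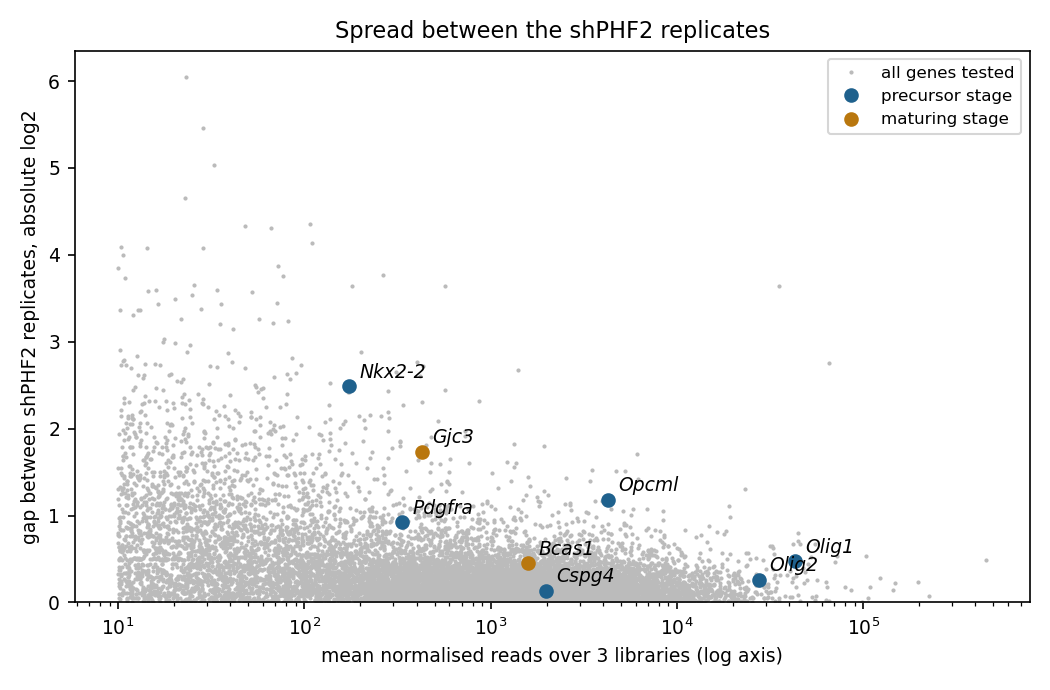
Absolute log2 gap between shPHF2 replicates 1 and 2 against the mean over the 3 libraries (log axis), for all 14148 genes tested (grey) and the 8 lineage genes (coloured by stage). Nkx2-2, Gjc3 and Opcml sit at the upper edge of the cloud at their level, and Cspg4 and Olig2 sit inside it.

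Further genes of the lineage were read from lists of names. Over all genes tested, 7.22% were higher and 7.11% lower (limma). Of 25 other precursor genes tested, 2 rose and 1 fell, for a median of 0.23 on the log2 scale over that list, beside -0.01 over all genes tested. S100b, a calcium-binding protein gene also used as an astrocyte marker, had 1094 and 850.0 normalised reads in the shPHF2 libraries and 331 in shControl, a change of 1.54 on the log2 scale (limma, adjusted p = 0.011). Vcan, the versican proteoglycan gene, had 14847 and 15684 against 8432, a change of 0.86 (limma, adjusted p = 0.025). Dll1, a Notch ligand gene, had 742 and 952 against 1660, a change of -0.98 (limma, adjusted p = 0.029). Sox10, the factor that defines committed precursors, was low throughout at 10.0 and 4.82 normalised reads in the shPHF2 libraries and 23.9 in shControl (limma, adjusted p = 0.32).

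Of 28 other maturing and myelin genes tested, 6 rose and 0 fell (limma), with a median log2 fold change of 0.45. The shares over all genes tested were 7.22% higher and 7.11% lower. At an unadjusted p under 0.05, 11 were higher and 2 lower, beside 15.8% and 15.4% of all genes. EdgeR and DESeq2 called 4 higher and 0 lower each, where 15.2% and 14% of all genes passed in either direction. Aspa, the aspartoacylase gene, had 112 and 194 normalised reads in the shPHF2 libraries and 25.9 in shControl, a change of 2.46 (limma, adjusted p = 0.021). Ermn, which encodes the myelin cytoskeletal protein ermin, had 69.2 and 74.8 against 9.97, a change of 2.73 (limma, adjusted p = 0.026). Car2, the carbonic anhydrase gene of oligodendrocytes and other cells, had 4299 and 5212 against 2758, and Nfasc, the neurofascin gene of glia and axons, 194 and 416 against 82.7 (limma, adjusted p = 0.034 and 0.045). Of the structural genes of myelin, Mbp and Mag were near the lower limit. Mbp had 3.33 and 16.9 normalised reads in the shPHF2 libraries and 2.99 in shControl and Mag 0.83 and 0 against 1.00. Myrf, the regulator of myelination, had 142 and 135 against 68.8, a change of 1.00 that did not pass (limma, adjusted p = 0.14).

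The nearest protein-coding genes on either side of the 9 were 16 genes outside this group. Of these, 8 were tested and 1 was called (limma), where 14.3% of all genes tested were called. That gene was Cyp24a1, a vitamin D catabolic enzyme gene beside Bcas1, with 36.7 and 41.0 normalised reads in the shPHF2 libraries and 1 read in shControl. It had 38.6 times the control's reads at equal depth (exact 95% interval 6.72 to 1543, counting error only). Kit, the neighbour of Pdgfra and a related receptor gene, had 1350 and 1124 normalised reads in the shPHF2 libraries and 881 in shControl (limma, adjusted p = 0.17), on the other side of the control from Pdgfra.

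The connexins other than Gjc3 moved in both directions. Of 8 connexin genes tested, Gjc3 included, 2 fell and 1 rose (limma), with a median log2 fold change of -0.08. Over all genes tested, 7.11% were lower and 7.22% higher. Gjc1, the connexin 45 gene, had 652 and 456 normalised reads in the shPHF2 libraries and 1393 in shControl, a change of -1.35 (limma, adjusted p = 0.019).

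In the PDGF system, where Pdgfra is the receptor of precursors, the ligand gene Pdgfa rose. It had 765 and 872 normalised reads in the shPHF2 libraries and 341 in shControl, a change of 1.26 on the log2 scale (limma, adjusted p = 0.016). Of 6 genes of this system tested, Pdgfra included, 1 rose and 0 fell, with a median of 0.96 (limma; 4 higher and 1 lower at an unadjusted p under 0.05, and 1 higher and 0 lower with edgeR and with DESeq2). Among all genes tested, 7.22% were higher and 7.11% lower (limma), and 15.8% and 15.4% at an unadjusted p under 0.05. The other receptor gene, Pdgfrb, had 0.83 and 2.41 against 1.00 and was not tested. In the IgLON family, to which Opcml belongs, 1 of 5 genes rose and 0 fell, with a median of 0.93 (limma; 3 higher and 0 lower at an unadjusted p under 0.05, 2 higher and 0 lower with edgeR, and 1 higher and 0 lower with DESeq2). Negr1 was that gene, at 1807 and 2054 normalised reads in the shPHF2 libraries and 716 in shControl, a change of 1.43 (limma, adjusted p = 0.0069). Ntm, the neighbour of Opcml on the other strand, had 121 and 556 against 164, with replicates on both sides of the control (limma, adjusted p = 0.60).

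Genes of hedgehog signalling and ventral patterning, which set the domain in which Olig2 and Nkx2-2 are first expressed, were mixed. Of 18 tested, 2 rose and 2 fell, with a median of -0.16 (limma). The shares over all genes tested were 7.22% higher and 7.11% lower. The ligand gene Shh had 520 and 946 normalised reads in the shPHF2 libraries and 271 in shControl, a change of 1.37 (limma, adjusted p = 0.042), and Irx3, a homeodomain repressor, changed by 1.75 (adjusted p = 0.029). The hedgehog co-receptor gene Cdon had 5911 and 4861 against 10447, a change of -0.96 (limma, adjusted p = 0.019), and the effector gene Gli2 changed by -1.07 (adjusted p = 0.031). The targets Gli1 and Ptch1, by which signalling is usually read, were near the control. Gli1 had 43.4 and 32.6 against 38.9, and Ptch1 2936 and 2390 against 2608 (limma, adjusted p = 0.97 and 0.95). Hhip, of the same list, lay above the control in both shPHF2 libraries, at 1612 and 715 against 543. Its change of 0.98 did not pass (limma, adjusted p = 0.15). A list of 14 genes drawn up for repressors of oligodendrocyte differentiation held 2 that rose and 1 that fell, with a median of -0.05, and 1 of those that rose, Klf6, is no such repressor. Id2, an inhibitor of helix-loop-helix factors, had 3105 and 4017 normalised reads in the shPHF2 libraries and 955 in shControl, a change of 1.89 (limma, adjusted p = 0.0047). Klf6, which is known to support myelination, rose by 0.79 (limma, adjusted p = 0.027), and Bmpr1b, a BMP receptor gene, changed by -1.50 (limma, adjusted p = 0.0092).

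**Figure D4:**
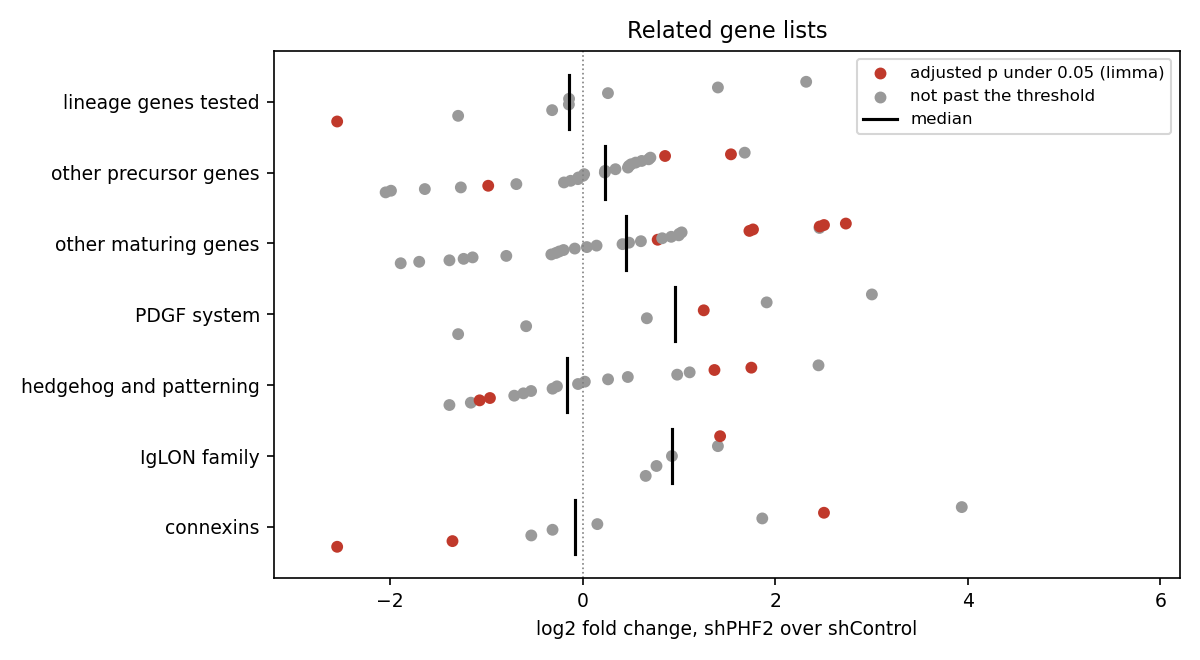
Log2 fold changes, shPHF2 over shControl, of the lineage genes tested and of 6 lists of related genes. Each point is a gene, red where adjusted p is under 0.05 (limma), and black bars are medians. The lists with the highest medians are the PDGF system and the IgLON family, at 0.96 and 0.93. Each holds 1 gene past the threshold, where 14.3% of all genes tested passed.

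Markers of other cells that express some of these genes were read beside them. The shares to set beside their counts are 7.22% higher and 7.11% lower over all genes tested (limma). At an unadjusted p under 0.05 these shares are 15.8% and 15.4%. Neural stem cell markers were abundant, with a summed level of 339254 and 385223 normalised reads in the shPHF2 libraries and 327268 in shControl, and 1 of 12 rose by limma (Sox2, by 0.68), where edgeR called 0 higher and DESeq2 3. For pericytes, which express Cspg4, the summed level was 6623 and 5708 against 3053, mostly from Notch3, the 1 gene of 6 tested that was called, which rose by 1.06 and is also a gene of neural progenitors, and the defining marker Pdgfrb was near 0. For fibroblasts, which express Pdgfra, the sum was 5558 and 4959 against 2005, nearly all from the transcription factor gene Foxc1, the 1 of 2 tested that was called, which rose by 1.39, and Col1a1 had 0.83 and 0 against 2.99. For Schwann and neural crest cells, which express Gjc3, the sum was 1736 and 2195 against 2922, mostly from Pou3f1 at 1333 and 1723 against 2187. Of these markers 0 of 5 were called (limma; 2 lower at an unadjusted p under 0.05, and 0 with edgeR or DESeq2). The marker Erbb3 had 2.5 and 1.21 against 1.99. Of 12 neuronal markers 1 fell (Elavl4, by 0.86), with a sum of 44770.4 and 48335 against 66838, mostly from Map2 at 37935 and 38518 against 60020.2, while these 12 markers had a median log2 change of 0.40. Of 12 astrocyte markers 2 rose (Agt and S100b), with a sum of 28896 and 28673 against 28449 and a median log2 change of 0.81. Gfap and Aqp4 were low, at 10.8 and 20.5 against 1.99 and at 6.67 and 37.4 against 0, and neither was called (limma). Endothelial markers summed to 865 and 558 against 458, and 1 of 5 rose (Emcn, by 1.70). Of these 5, 3 lay above the control in both shPHF2 libraries and 2 below it. The lower 2 were Kdr, at 156 and 77.2 against 200, and Esam, at 10.0 and 1.21 against 35.9, neither called (limma). The endothelial markers Cldn5, at 0 and 0 against 3.99, and Cdh5, at 10.8 and 2.41 against 2.99, were low and not tested. Microglial markers summed to 383 and 329 against 306, and 0 of 3 were called (limma; 1 higher at an unadjusted p under 0.05, and 0 with edgeR or DESeq2). Of the 10 markers listed 6 were absent. The sum came mostly from P2ry12 at 204 and 213 against 99.7 and Cd68 at 148 and 102 against 195. The part of any of these cells in the values above was not tested.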

How the data were processed

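Total RNA without ribosomal RNA was sequenced from 3 libraries with a stranded kit, per the labels' protocols. HISAT2, HTSeq, DESeq2 and the build mm10 are named in the submitters' processing notes, and the sources used here do not give versions, annotation or strand setting. The deposited signal is each gene's reads over the size factor of its library, per the file headers and values. All values (100%) were whole multiples of 1 read within 0.001, so reads were recovered. The authors' deposited table also gives log2 fold changes with standard errors, a Wald score, p-values and adjusted p-values.

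Rows that name no gene (4) were left out. In the order shPHF2 replicate 1, replicate 2 and shControl, 44.0%, 38.7% and 42.7% of reads fell on no feature, 15.9%, 20.5% and 17.0% were of low alignment quality, 1.22%, 1.78% and 1.18% were unaligned and 0.430%, 0.434% and 0.461% were ambiguous. There were 0 unused library columns. Values were fitted as log2(value + 1) with limma 3.58.1 (mean-variance trend, R 4.3.3) for 14148 genes with a mean of at least 10, two-sided, with Benjamini-Hochberg adjustment over all of them. The pseudocount makes fold changes of low genes too small. The fit has 1 residual degree of freedom, from the shPHF2 pair, and the lone control is assumed to vary likewise. Nothing says whether the pair came from separate cultures, so p-values measure the spread between these libraries. Alternatives included edgeR 4.0.16 and DESeq2 1.42.0 on recovered reads. The scripts were tested on simulated data.

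Exon lengths and coordinates come from GENCODE M21 (GRCm38), promoters from RefSeq (GRCm38.p6). The genes and lists were chosen with earlier results of these data known. By rule, each list is given by its counts with at most 4 called genes of smallest p, beside key genes of the lineage, and the 2 patterns most like a called gene. Nearest protein-coding neighbours are given as a count, with names where a value bears on them. Some listed genes are counted and are not reported here by name.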

Additional observations from a re-analysis of the deposited data

How the results depend on the processing

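Direction held for all 8 genes tested in 11 alternative settings, and Olig1, Olig2, Pdgfra, Cspg4 and Bcas1 stayed on the same side of the threshold in each. Gjc3 passed in 6 of the 11 (adjusted p 8.4e-04 to 0.26), Opcml in 3 (0.031 to 0.32) and Nkx2-2 in 2 (0.0064 to 0.34). With no filter on low values, without the mean-variance trend and with quantile normalization, limma called 0 genes higher and 0 lower, so also 0 of the 8 lower, where 1952, 1760 and 1875 genes were higher and 1941, 1540 and 1825 lower at an unadjusted p under 0.05. The count of genes lower was 0 of these 8 with the GC and length correction and with DESeq2 without a filter, both chosen after seeing the data, and the first called 517 genes higher in all. With a minimum mean of 50, TMM factors, edgeR and DESeq2 with or without the filter, 1 of the 8 was called higher, Opcml in the first 3 and Nkx2-2 with DESeq2. The cause of these shifts was not tested. Leaving out shPHF2 replicate 1 or 2 leaves no residual degrees of freedom, so these values have no test, and the log2 fold changes ranged from -3.42 to -1.68 for Gjc3, -1.75 to -0.83 for Pdgfra, 1.08 to 3.57 for Nkx2-2 and 0.81 to 2.00 for Opcml. The GC and length correction moved the median of all genes to -0.08. No paired analysis was possible because the control is 1 library. A lone control and low reads limit Nkx2-2 and Gpr17 in particular.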
